A study of Homo sapiens with 9 samples.

Results

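The genes described here are 10 genes of the NRF2 antioxidant response, chosen by symbol from the 28216 genes of the deposited count table: NFE2L2, KEAP1, NQO1, HMOX1, OSGIN1, SLC7A11, GCLC, GCLM, TXNRD1 and SRXN1. All 10 had a row in the table and all 10 passed the filter on low counts in each comparison. They were measured by RNAseq in 9 libraries of prostate cancer cells, with 3 libraries in each of 3 groups. PC3 cells, a line grown from a metastasis that lacks the androgen response, were left untreated in F12K medium with 10% serum. LNCaP cells (clone FCG), a line from a metastasis that responds to androgen, were kept for 24 h in medium with 10% charcoal-stripped serum and then received androgen at 10 nM, or 0.01% ethanol as vehicle, for 48 h. The sample labels name the androgen as DHT and the main text of the study names R1881. All 3 groups are unmodified lines, each of them a single model of the disease, and medium, serum and cell line cannot be told apart between PC3 and LNCaP cells.

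NRF2, encoded by NFE2L2, is a transcription factor that turns on genes for detoxification, glutathione synthesis and the thioredoxin system. KEAP1 binds NRF2 in the cytoplasm and presents it to a ubiquitin ligase for degradation, and oxidants or electrophiles that modify KEAP1 stop this. NRF2 that escapes degradation pairs with small MAF proteins on the antioxidant response element of its targets, so its activity is set mainly by protein stability and not by the level of its mRNA. In many tumour types, mutations in KEAP1 or NFE2L2 keep the pathway switched on.

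Gene locations come from GENCODE 44, whose canonical transcripts of the 10 genes hold from 2 (SRXN1) to 17 exons (TXNRD1) and from 1554 (HMOX1) to 9645 nt (SLC7A11). Levels are given as CPM, read counts scaled to a common library size with TMM factors over all 9 libraries. A gene passed where edgeR's quasi-likelihood test gave an adjusted p under 0.05 over all genes tested, and it was called where the fold change was also at least 2. Log2 fold changes (log2FC) are given with their standard error (SE). The PC3 libraries enter both comparisons of the cell lines, and each LNCaP group enters the comparison with PC3 and the one between the LNCaP groups. The labels do not say whether the libraries of a group came from separate cultures, so the p-values measure the spread between these libraries, which may be technical. RNA was taken from whole cultures, so fewer cells that express a gene and less RNA per cell cannot be told apart.

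The 10 genes did not move as one group between the cell lines. Against LNCaP cells with androgen, GCLC and OSGIN1 were called higher in PC3 cells and SRXN1 lower, so 3 of 10 genes (30%) were called, compared with 46% of all 12541 genes tested (24% higher and 22.1% lower). Against LNCaP cells with vehicle, GCLC, OSGIN1 and TXNRD1 were called higher in PC3 cells and none lower, again 3 of 10, compared with 43.2% of 12686 genes (22.2% higher and 21% lower). With androgen against vehicle in LNCaP cells, HMOX1 was the only one of the 10 called, 10% of them, compared with 14% of 11697 genes (6.54% higher and 7.49% lower). With both directions counted together, none of these shares lay above that of all genes. Without the fold change limit, 5 of the 10 genes passed the test as higher and 2 as lower in PC3 cells than in LNCaP cells with androgen (84% of all genes passed, 42.9% higher and 41.1% lower), 6 and 2 against vehicle (83.4%, of which 42.6% higher and 40.8% lower), and 7 rose and 1 fell with androgen (74.9%, of which 37.1% higher and 37.8% lower). Every library of 1 group was above every library of the other for 6 genes as higher and 2 as lower in PC3 cells against androgen (86.2% of all genes, 44% higher and 42.2% lower), for 6 and 2 against vehicle (85.5%, 44.1% and 41.4%), and for 6 and 1 with androgen against vehicle (76.8%, 40.2% and 36.6%). The share farthest above that of all genes was that of the 7 genes that rose with androgen, and none of the shares was tested against that of all genes. The median log2FC of the 10 genes was 0.28, 0.49 and 0.27 in these 3 comparisons, and that of all genes was 0.0356, 0.0263 and -0.0068. SLC7A11 was the 1 gene of the 10 that fell with androgen.

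**Figure D1:**
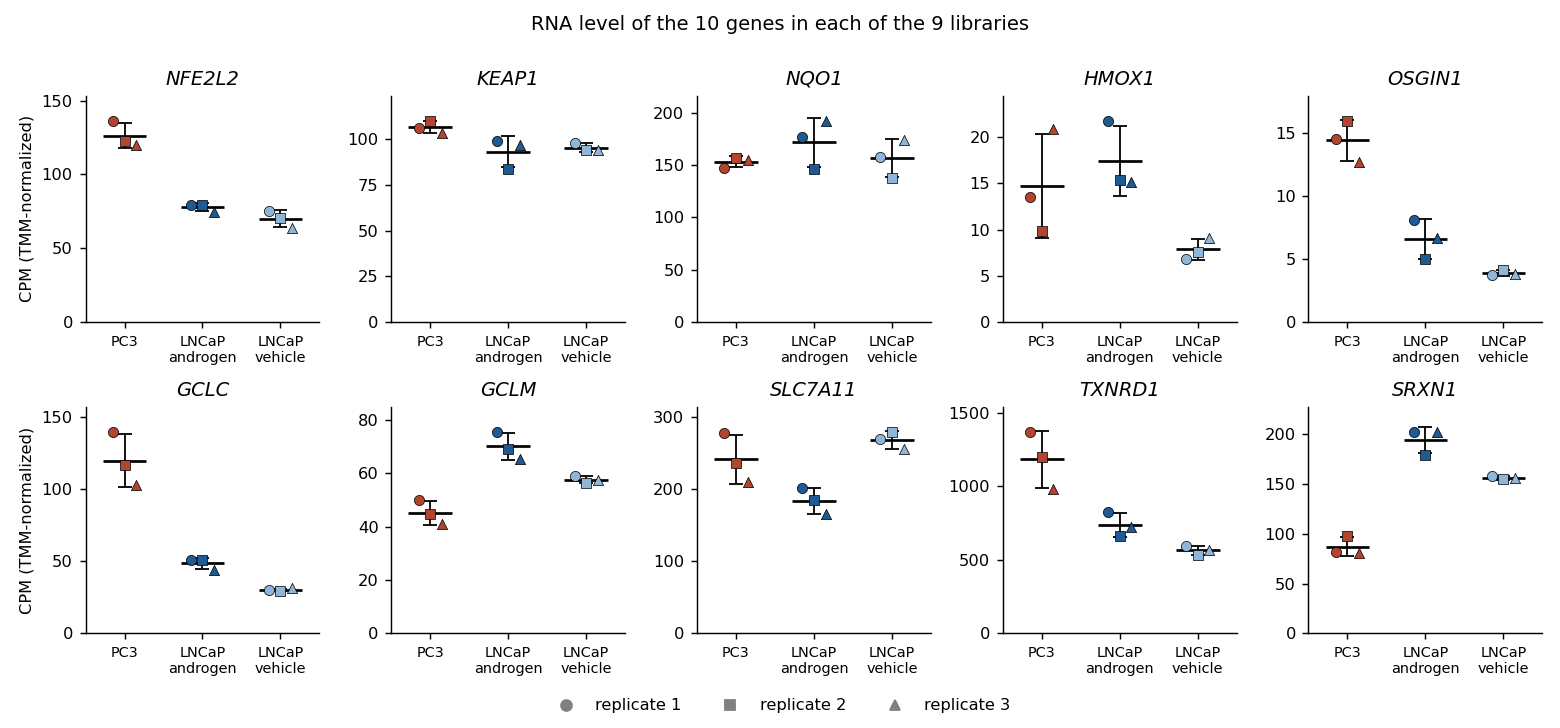
CPM (TMM-normalized, linear axes from 0) of the 10 genes in each library, with replicates 1, 2 and 3 as circles, squares and triangles, group means as horizontal lines and 1 SD (n = 3) as vertical bars. GCLC and OSGIN1 stood highest in PC3 cells and lowest in LNCaP cells with vehicle, whereas SRXN1 and GCLM were lowest in PC3 cells and SLC7A11 was lowest in LNCaP cells with androgen.

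NFE2L2 lies on chromosome 2 of GRCh38 from 177218667 to 177392756 on the minus strand. It reached 136, 123 and 120 CPM in PC3 replicates 1, 2 and 3, 78.9, 79.5 and 74.8 CPM in LNCaP cells with androgen, and 75.3, 70.2 and 63.9 CPM in LNCaP cells with vehicle. Every PC3 library was above every LNCaP library, and the LNCaP groups overlapped. The log2FC of PC3 cells was 0.69 (SE 0.07, adjusted p = 3.15e-05 from edgeR) against androgen and 0.83 (SE 0.08, adjusted p = 2.73e-05 from edgeR) against vehicle, both below the fold change of 2. Between the LNCaP groups it was 0.13 (SE 0.05, adjusted p = 0.0484 from edgeR), with 0.0111 to 0.383 in the other fits and the largest value when vehicle replicate 3 was left out.

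KEAP1, the inhibitor of NRF2, lies on chromosome 19 from 10486125 to 10503558 on the minus strand. It had 106, 110 and 104 CPM in PC3 cells, 99.1, 83.5 and 96.6 CPM with androgen and 98.1, 94.3 and 93.8 CPM with vehicle. The PC3 libraries lay narrowly above all LNCaP libraries, whose 2 groups overlapped. The log2FC of PC3 cells was 0.18 (SE 0.08, adjusted p = 0.0531 from edgeR) against androgen and 0.14 (SE 0.05, adjusted p = 0.0412 from edgeR) against vehicle, and that of androgen against vehicle was -0.06 (SE 0.05, adjusted p = 0.296 from edgeR). The difference from vehicle was small and without any 1 vehicle library its adjusted p was 0.51 to 0.726 (0.000937 to 0.726 over all alternatives). Leaving out a library also changed the genes tested and the scaling, so this is not the effect of that library alone. Within a library, NFE2L2 had 1.12 to 1.29 counts in PC3 cells for each KEAP1 count, 0.774 to 0.952 with androgen and 0.681 to 0.768 with vehicle. In this ratio, too, PC3 cells were above all LNCaP libraries.

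NQO1, a quinone reductase that is often used as a readout of NRF2, lies on chromosome 16 from 69706996 to 69726668 on the minus strand. It had 147, 157 and 155 CPM in PC3 cells, 177, 146 and 192 CPM in LNCaP cells with androgen, and 158, 138 and 174 CPM with vehicle. The groups overlapped in all 3 comparisons. The log2FC was -0.18 (SE 0.10, adjusted p = 0.135 from edgeR) and -0.06 (SE 0.09, adjusted p = 0.565 from edgeR) for PC3 cells against androgen and vehicle, and 0.10 (SE 0.09, adjusted p = 0.331 from edgeR) for androgen against vehicle. In both LNCaP groups replicate 3 was highest and replicate 2 lowest, and each androgen library was above the vehicle library of its number. With the replicate number as a block, NQO1 passed edgeR's test with androgen (log2FC 0.10, adjusted p = 0.0163), and its adjusted p was between 0.0151 and 0.945 in the other fits, with the largest value when androgen replicate 3 was left out.

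HMOX1 encodes heme oxygenase-1, which opens heme and releases its iron, and lies on chromosome 22 from 35380361 to 35394214 on the plus strand. It had 21.8, 15.3 and 15.1 CPM (471, 313 and 304 counts) in LNCaP cells with androgen and 6.85, 7.57 and 9.13 CPM (131, 142 and 184 counts) with vehicle. All androgen libraries were above all vehicle libraries, and the log2FC was 1.12 (SE 0.15, adjusted p = 1.33e-05 from edgeR). Without androgen replicate 1, the highest of the 3, the log2FC was 0.94 and HMOX1 was no longer called.

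In PC3 cells the HMOX1 level was spread widely, with 13.6, 9.80 and 20.9 CPM in replicates 1, 2 and 3. Its coefficient of variation there was 38.1%, against a median of 9.94% over 12843 genes. PC3 cells overlapped LNCaP cells with androgen (log2FC -0.25, SE 0.28, adjusted p = 0.422 from edgeR). They lay above LNCaP cells with vehicle, with a log2FC of 0.89 (SE 0.28, adjusted p = 0.0170 from edgeR), which was 1.04 and 1.21 and called without PC3 replicate 1 and 2, and 0.63 and not called without PC3 replicate 3. Against androgen, the log2FC of HMOX1 without PC3 replicate 3 was -0.47. PC3 replicate 3, which held the most HMOX1, also stood apart over all genes, with a chi-square per degree of freedom of 35.4 and 61.1 against the other PC3 replicates, which gave 12.8 between them. The part of that library in the spread of HMOX1 was not tested.

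OSGIN1, an oxidative stress-induced growth inhibitor and known NRF2 target, lies on chromosome 16 from 83931311 to 83966332 on the plus strand. It had 14.6, 16.0 and 12.8 CPM in PC3 cells, 8.13, 5.00 and 6.71 CPM with androgen, and 3.72, 4.16 and 3.82 CPM with vehicle. The 3 groups did not overlap. Against androgen, PC3 cells had a log2FC of 1.11 (SE 0.18, adjusted p = 0.000594 from edgeR), and against vehicle 1.87 (SE 0.13, adjusted p = 3.59e-06 from edgeR). With androgen, OSGIN1 rose by a log2FC of 0.73 (SE 0.17, adjusted p = 0.00140 from edgeR). Without androgen replicate 2, which had 102 OSGIN1 counts, the log2FC of PC3 cells against androgen was 0.86 and the gene was not called.

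**Figure D2:**
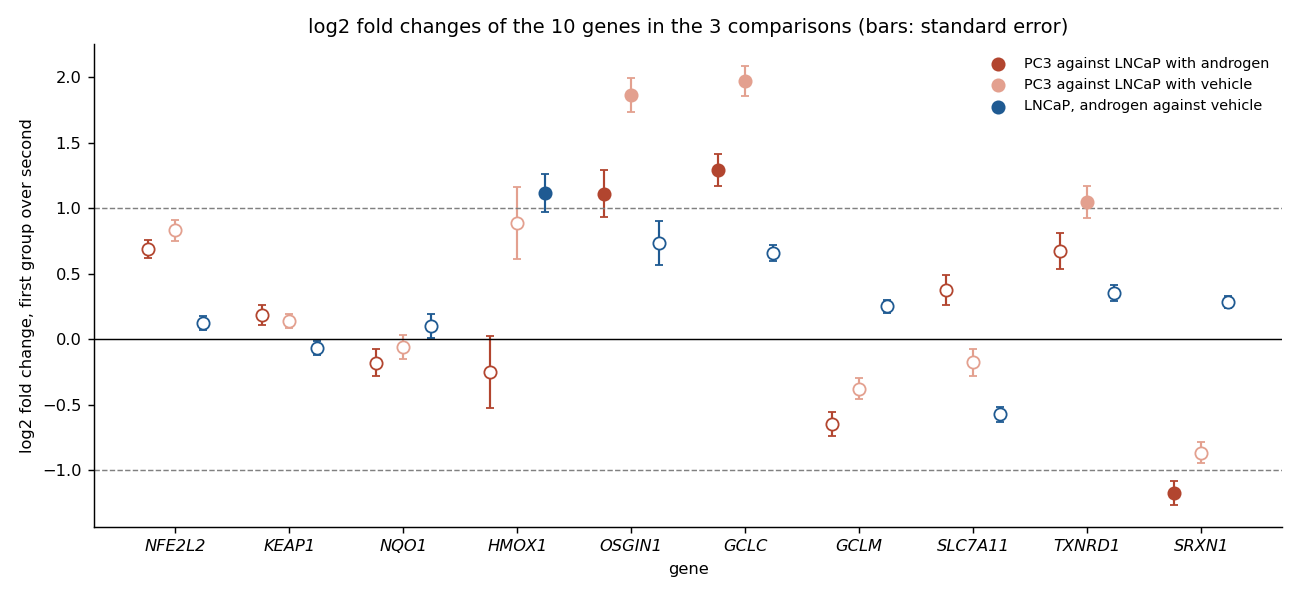
log2FC of the 10 genes, first group over second, in PC3 cells against LNCaP cells with androgen, in PC3 cells against LNCaP cells with vehicle and in LNCaP cells with androgen against vehicle, with bars of 1 SE. Filled points passed the adjusted p and the fold change of 2 (dashed lines), and the 7 filled points are those of HMOX1, OSGIN1, GCLC, TXNRD1 and SRXN1.

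Glutathione is made from cysteine, glutamate and glycine. SLC7A11 is the light chain of the transporter that imports cystine in exchange for glutamate, and glutamate-cysteine ligase, the rate-limiting enzyme, joins a catalytic subunit (GCLC) and a modifier subunit (GCLM). The genes of both subunits, which form 1 enzyme, stood in opposite order in the cell lines.

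GCLC lies on chromosome 6 from 53497341 to 53616970 on the minus strand. It had 139, 117 and 103 CPM in PC3 cells, 50.6, 50.8 and 43.9 CPM with androgen, and 29.8, 29.2 and 31.1 CPM with vehicle. The 3 groups were fully apart, with PC3 cells highest. In PC3 cells it was higher than with androgen by a log2FC of 1.29 (SE 0.12, adjusted p = 1.91e-05 from edgeR) and than with vehicle by 1.97 (SE 0.11, adjusted p = 1.46e-06 from edgeR). With androgen, GCLC rose by 0.66 (log2FC, SE 0.06, adjusted p = 7.16e-07 from edgeR).

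GCLM lies on chromosome 1 from 93885199 to 93909456 on the minus strand. It had 49.8, 44.7 and 40.8 CPM in PC3 cells, 75.5, 69.2 and 65.4 CPM with androgen, and 59.0, 56.3 and 57.6 CPM with vehicle. Here PC3 cells were lowest and the groups were again apart. Its log2FC in PC3 cells against androgen and vehicle was -0.65 (SE 0.09, adjusted p = 0.000252 from edgeR) and -0.37 (SE 0.08, adjusted p = 0.00315 from edgeR), and androgen gave a rise of 0.25 (log2FC, SE 0.05, adjusted p = 0.000451 from edgeR). GCLC had 2.51 to 2.80 counts for each GCLM count in PC3 cells, 0.670 to 0.734 with androgen and 0.505 to 0.540 with vehicle. Per length of the canonical transcripts, the mean ratio of GCLC to GCLM was 3.41, 0.892 and 0.672, so the catalytic subunit was the more abundant mRNA in PC3 cells and the modifier subunit in both LNCaP groups. The ratio within a library does not depend on the scaling between libraries.

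SLC7A11 lies on chromosome 4 from 138164097 to 138242349 on the minus strand. It had 202, 184 and 166 CPM in LNCaP cells with androgen and 269, 279 and 256 CPM with vehicle, with every androgen library below every vehicle library. It fell by 0.57 on the log2 scale with androgen (SE 0.06, adjusted p = 9.25e-07 from edgeR). PC3 cells, with 277, 237 and 210.0 CPM, were above all androgen libraries (log2FC 0.38, SE 0.11, adjusted p = 0.0148 from edgeR) and overlapped the vehicle libraries (log2FC -0.17, SE 0.10, adjusted p = 0.148 from edgeR).

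SLC7A11 is also a target of ATF4, the transcription factor of the integrated stress response. Among 9 genes of that response, 1 was called with androgen (ATF3, log2FC 1.71), and 2 passed the test as higher and 4 as lower, with a median of -0.06. Of all genes, 14% were called with androgen, 37.1% passed the test as higher and 37.8% as lower. The 4 stress response genes that fell were SESN2 (log2FC -0.57), PSAT1 (-0.55), CHAC1 (-0.41) and ASNS (-0.30), whereas TRIB3 rose (0.68). ATF4 itself had a log2FC of -0.06 (SE 0.05, adjusted p = 0.242 from edgeR). SLC3A2, the heavy chain that partners SLC7A11, rose slightly with androgen (log2FC 0.15, SE 0.04, adjusted p = 0.00257 from edgeR), and SLC7A11 had 0.791 to 0.906 counts for each SLC3A2 count with androgen, 1.35 to 1.46 with vehicle and 0.542 to 0.690 in PC3 cells. SLC3A2 was chosen for this ratio after its values were seen.

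**Figure D3:**
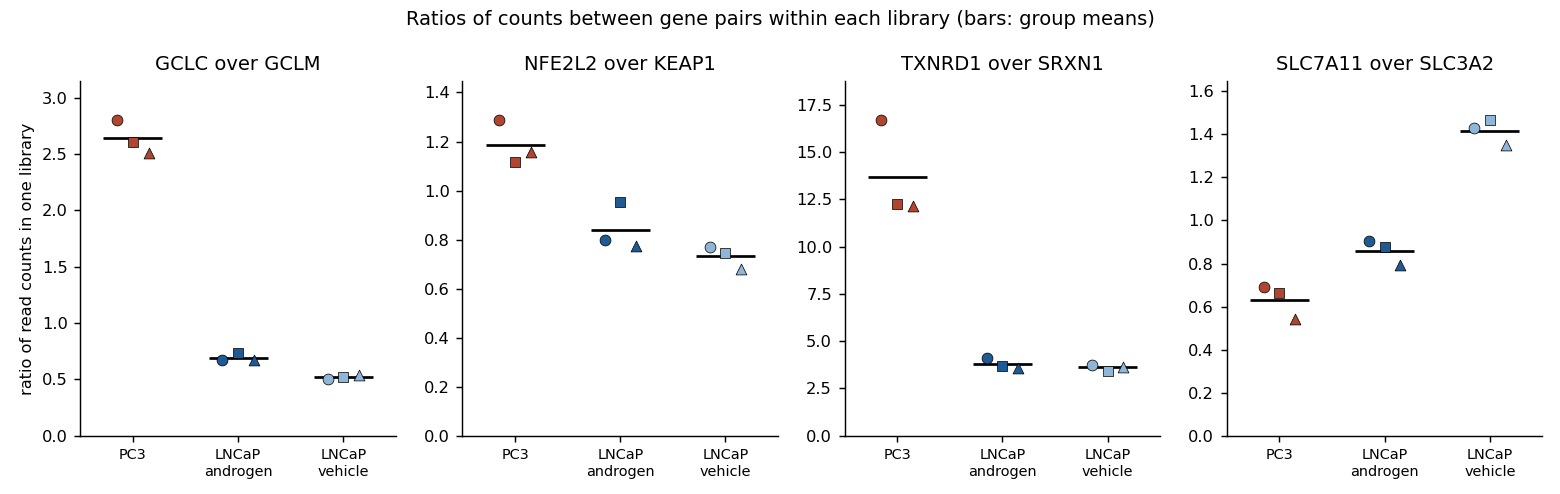
Ratios of read counts between pairs of genes within each library (linear axes from 0), with replicates 1, 2 and 3 as circles, squares and triangles and group means as lines. PC3 cells were above all LNCaP libraries for GCLC over GCLM, NFE2L2 over KEAP1 and TXNRD1 over SRXN1, and below them for SLC7A11 over SLC3A2.

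TXNRD1 encodes the cytosolic thioredoxin reductase, a selenoprotein that returns oxidized thioredoxin to its reduced form with NADPH, and lies on chromosome 12 from 104215779 to 104350307 on the plus strand. It had 1369, 1199 and 984 CPM in PC3 cells, 825, 660 and 722 CPM with androgen, and 596, 533 and 564 CPM with vehicle. No group overlapped another. The log2FC of PC3 cells was 0.67 (SE 0.14, adjusted p = 0.00192 from edgeR) against androgen and 1.05 (SE 0.12, adjusted p = 8.04e-05 from edgeR) against vehicle, and androgen gave a rise of 0.35 (log2FC, SE 0.06, adjusted p = 0.000145 from edgeR). The call against vehicle sat at the fold change limit. Without vehicle replicate 1, 2 or 3 in turn, the log2FC was between 0.91 and 0.98 and not called. These fits tested 11726 to 11730 genes in place of 12686, with the scaling computed anew. The shift can therefore not be read as that of the vehicle libraries alone.

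SRXN1 encodes sulfiredoxin, which repairs over-oxidized peroxiredoxins, and lies on chromosome 20 from 646615 to 653200 on the minus strand. It had 82.1, 97.8 and 81.1 CPM in PC3 cells, 202, 179 and 202 CPM with androgen, and 158, 155 and 155 CPM with vehicle. PC3 cells were below every LNCaP library. Its log2FC in PC3 cells was -1.17 (SE 0.09, adjusted p = 6.52e-06 from edgeR) against androgen and -0.87 (SE 0.08, adjusted p = 2.02e-05 from edgeR) against vehicle, and androgen gave a rise of 0.29 (log2FC, SE 0.05, adjusted p = 9.20e-05 from edgeR). Of the 74-nt stretches of the SRXN1 transcript, 90.5% also belong to an overlapping read-through gene that joins SRXN1 to SCRT2, so counts on SRXN1 may include reads of that transcript. SCRT2 itself had 0 counts in every library, and whether the read-through transcript was present was not tested. TXNRD1 had 12.1 to 16.7 counts for each SRXN1 count in PC3 cells, against 3.57 to 4.09 with androgen and 3.45 to 3.76 with vehicle.

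TXNRD1 was the most abundant of the 10 mRNAs in every group when CPM were divided by the length of the canonical transcript, at 307 CPM per kb in PC3 cells, 191 with androgen and 146 with vehicle. On this scale NQO1 came next in PC3 cells (60.7) and SRXN1 in LNCaP cells with androgen (76.8), where the libraries of SRXN1 (70.8 to 79.9) and NQO1 (57.8 to 76.3) overlapped. In LNCaP cells with vehicle NQO1 (54.8 to 69.2) and SRXN1 (61.1 to 62.6) overlapped too. OSGIN1 was lowest in each group, at 7.52, 3.44 and 2.03 CPM per kb. In PC3 cells, the libraries of OSGIN1 (6.64 to 8.33) and HMOX1 (6.31 to 13.4) overlapped. Of the summed CPM of the 10 genes, TXNRD1 made up 53.7 to 58.6% in PC3 cells, 44.8 to 47.4% with androgen and 39.02 to 41.0% with vehicle. The sum was 1830 to 2335 CPM in PC3 cells, 1473 to 1739 with androgen and 1367 to 1454 with vehicle, and without TXNRD1 it was 847 to 966, 812 to 915 and 834 to 858 CPM, so that the groups overlapped.

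For 8 of the 10 genes RefSeq gave promoter windows on GRCh38.p14, from 250 bases before to 50 bases after a start site, and these were searched on both strands for the core of the antioxidant response element, TGACNNNGC. GCLM, KEAP1 and TXNRD1 had a match (37.5% of 8 genes), as had 19.4% of 9959 symbols tested between the cell lines and 13.3% of all 35116 windows. The matches are shown with 10 bases on each side, 5′ to 3′ on the strand of the gene and with the match in capitals, because this core is what NRF2 and its partners bind. Where the capitals begin with GC, the core is on the other strand. A match is a description of the letters and not a measured site, and the windows of the other 5 genes say nothing about elements farther away.
GCLM (chr1:93909446-93909474, minus strand, match starting 34 bases before the start site): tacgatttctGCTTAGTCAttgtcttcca
TXNRD1 (chr12:104215670-104215698, plus strand, match starting 99 bases before the start site): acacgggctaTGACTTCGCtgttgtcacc
TXNRD1 (chr12:104215761-104215789, plus strand, match starting 8 bases before the start site): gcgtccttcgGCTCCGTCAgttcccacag
TXNRD1 (chr12:104286920-104286948, plus strand, match starting 102 bases before the start site): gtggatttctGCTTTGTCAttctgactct
KEAP1 (chr19:10502807-10502835, minus strand, match starting 54 bases before the start site): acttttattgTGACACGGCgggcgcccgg
KEAP1 (chr19:10502784-10502812, minus strand, match starting 31 bases before the start site): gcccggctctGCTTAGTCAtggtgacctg
GCLM and TXNRD1 both rose with androgen and KEAP1 did not pass that test, and in PC3 cells GCLM was low and TXNRD1 high. Of the 5 searched genes without a match, OSGIN1 (log2FC 0.73), GCLC (0.66), SRXN1 (0.29) and NFE2L2 (0.13) also rose with androgen. NQO1 did not pass. In PC3 cells OSGIN1, GCLC and NFE2L2 were high and SRXN1 low. A link between the matches and the levels was not tested. The KEAP1 matches belong to the start site that lies within the gene, downstream of the start of the canonical transcript. The same holds for the TXNRD1 match in the window from 104286920.

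Of 11 partners and regulators of NRF2, 2 passed both limits as higher in PC3 cells and 1 as lower against androgen, 4 higher and none lower against vehicle, and 2 higher and none lower with androgen. The called shares were 27.3, 36.4 and 18.2%, compared with 46, 43.2 and 14% of all genes tested. Without the fold change limit, 6 genes passed edgeR's test as higher and 2 as lower in PC3 cells against androgen. Against vehicle 8 passed as higher and 1 as lower, and with androgen 8 rose and 1 fell. By the adjusted p alone, 84% (42.9% higher and 41.1% lower), 83.4% (42.6 and 40.8%) and 74.9% (37.1 and 37.8%) of all genes passed. No share of a list was tested against that of all genes. The median log2FC of the list was 0.23, 0.85 and 0.45 in these comparisons. MAFF, a small MAF protein, had 47.8, 40.5 and 38.8 CPM in PC3 cells, 8.18, 7.65 and 5.81 CPM with androgen and 1.05, 1.23 and 0.844 CPM with vehicle. Its log2FC was 2.54 and 5.33 for PC3 cells against androgen and vehicle and 2.77 for androgen against vehicle. MAFF had 17 to 23 counts per vehicle library. In both comparisons with vehicle it passed the filter on low counts only through the group where it was high, so no p is given. Its calls there are part of the shares of 36.4 and 18.2% and of the 8 genes that were higher. They are no result about the list. MAFK rose with androgen from 37.99, 32.3 and 35.5 to 81.3, 82.8 and 78.7 CPM (log2FC 1.17, SE 0.05, adjusted p = 5.72e-10 from edgeR). NFE2L3, a relative of NFE2L2, was higher in PC3 cells (log2FC 2.64 and 2.14), and RBX1, a subunit of the ubiquitin ligase that KEAP1 serves, was lower against androgen (-1.28). In transcripts of other genes, 22.3% of the 74-nt stretches of MAFK and 20.2% of those of NFE2L3 also occur.

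In glutathione handling, 9 of 10 genes were tested, and 1 was called higher and 3 lower in PC3 cells in both comparisons, with a median log2FC of -0.52 against androgen and -0.23 against vehicle. The called share was 44.4% in both, compared with 46 and 43.2% of all genes. With androgen against vehicle, 1 was called higher (11.1%, compared with 14% of all genes) and the median was 0.34. GSR, the reductase that regenerates glutathione, had 54.7, 64.3 and 52.3 CPM in PC3 cells, 523, 482 and 510.03 CPM with androgen and 267, 243 and 261 CPM with vehicle. The log2FC of PC3 cells was -3.16 (SE 0.09, adjusted p = 5.11e-08 from edgeR) against androgen and -2.19 against vehicle. GGT1, which breaks down extracellular glutathione, had log2FC of -4.81 and -3.74, and GGCT had -2.14 and -2.33. GLRX, a glutaredoxin, was higher in PC3 cells (3.82 and 3.52). With androgen against vehicle GGT1 had a log2FC of 1.05, which was 0.91, 0.997 and 0.99 and not called without androgen replicate 1, vehicle replicate 2 and vehicle replicate 3. GGT1 had 14 to 29 counts per PC3 library and passed the filter on low counts only through LNCaP cells. Of the 74-nt stretches of its transcript, 86.6% are shared with transcripts of other genes and 20.1% with other genomic places, and of those of GGCT other genes share 33.9%, so both levels are uncertain.

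Of 14 genes for thioredoxin, peroxiredoxin and superoxide enzymes, none was called higher and 5 lower in PC3 cells against androgen, and 1 higher and 4 lower against vehicle. The called share was 35.7% in both, compared with 46 and 43.2% of all genes. Without the fold change limit, 3 passed edgeR's test as higher and 8 as lower against androgen, as did 42.9 and 41.1% of all genes. Against vehicle, 2 passed as higher and 11 as lower (42.6 and 40.8% of all genes). The median log2FC was -0.56 and -0.81, and -0.08 for androgen against vehicle. There TXNIP was the 1 gene called (7.14%, compared with 14% of all genes). The other thioredoxin reductases went against TXNRD1: TXNRD2, the mitochondrial enzyme, had log2FC of -1.91 and -1.88 in PC3 cells, and TXNRD3 -1.79 and -2.08. PRDX6 was higher in PC3 cells than with vehicle (1.15). TXNIP, the inhibitor of thioredoxin, fell with androgen from 226, 294 and 229 to 75.4, 99.1 and 76.9 CPM (log2FC -1.60, SE 0.12, adjusted p = 3.79e-08 from edgeR). For NADPH supply, IDH1 was called lower in PC3 cells (-2.88 and -1.91), and TALDO1 was lower against androgen (-1.20). In all, 1 of 6 genes was called higher and 2 lower against androgen and 1 higher and 1 lower against vehicle, with medians of -0.75 and -0.56. These were 50 and 33.3% of the list, compared with 46 and 43.2% of all genes. None of the 6 genes was called with androgen (14% of all genes). There 4 passed edgeR's test as higher and 1 as lower (37.1 and 37.8% of all genes), and the median was 0.50.

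Of 14 detoxification genes, 10 were tested between the cell lines, with 3 called higher and 5 lower in PC3 cells against androgen and 3 and 4 against vehicle, and medians of -0.61 and -0.23. The called shares were 80 and 70%, compared with 46 and 43.2% of all genes. ALDH3A1, an aldehyde dehydrogenase, had 142 to 323 counts per PC3 library but 0 to 2 per LNCaP library. AKR1C3, an aldo-keto reductase, had 99 to 102 counts in PC3 cells, 0 to 2 with androgen and 2 to 6 with vehicle. No fold change is given for either. The genes called higher were ALDH3A1, AKR1C3 and CBR3. ALDH3A1 and AKR1C3, and CBR3 against androgen, passed the filter on low counts only through PC3 cells, where they were high. These calls are therefore no result about the list. PIR (log2FC -2.24 and -1.99) and TRIM16L (-1.20 and -1.77) were lower in PC3 cells, TRIM16L without PC3 replicate 2 at -0.97 against androgen and not called. PIR had 64 to 81 counts per PC3 library and passed the filter on low counts only through LNCaP cells. CBR3, a carbonyl reductase, was the 1 gene of 8 tested (12.5%, compared with 14% of all genes) that was called with androgen (-1.43). The median of the 8 was 0.10. CBR3 had 33 to 46 counts per androgen library and passed the filter on low counts only through the vehicle group, and 61.4% of its 74-nt stretches occur in transcripts of other genes. Of the 74-nt stretches of the AKR1C3 transcript, 11.5% occur elsewhere in the genome.

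Of 9 genes tested for heme and iron handling, the pathway of HMOX1, 1 was called higher and 4 lower in PC3 cells against androgen and 2 and 4 against vehicle, with medians of -0.47 and -0.44. The called shares were 55.6 and 66.7%, compared with 46 and 43.2% of all genes. FTH1 and FTL, the ferritin chains that store iron, were higher in PC3 cells. The log2FC was 1.79 and 1.60 for FTH1 and 1.02 against vehicle for FTL. Without any 1 vehicle library FTL was at 0.89 to 0.94 and in a fit of all 9 libraries at 0.9998, in each case not called. FTH1 had 5503 CPM in PC3 replicate 3, against 2845 and 2502 in the other PC3 libraries, and 34.2% of the 74-nt stretches of its transcript and 12.0% of those of FTL occur at other genomic places (75.3% and 9.77% are shared with other genes' transcripts), so both levels are uncertain. FECH, which inserts iron into protoporphyrin to form heme, and BLVRB, which acts on a product of heme breakdown, were lower in PC3 cells, with log2FC of -3.33 and -2.33 and of -2.54 and -1.54. None of the 9 genes was called with androgen (14% of all genes). There 6 passed edgeR's test as higher and 2 as lower (37.1 and 37.8% of all genes), and the median was 0.19. FECH (log2FC 0.99) and BLVRB (0.98) were just below the fold change limit with androgen. Without the filter on low counts they were at 1.0084 and 1.0025 and called. In the integrated stress response, PC3 cells had 4 of 9 genes called higher and 1 lower in both comparisons (medians 0.81 and 0.26), with CHAC1, which degrades glutathione, at 3.08 and 2.69, TRIB3 at 1.92 and 2.62 and CEBPB at 2.01 and 2.01. ATF3 (-1.72 against androgen) and ASNS (-1.02 against vehicle) were lower. The called share of these 9 genes was 55.6% in both comparisons, compared with 46 and 43.2% of all genes. ASNS was at -0.75 and -0.98 and not called without PC3 replicate 2 and 3, and at -0.98 and not called with a filter of 10 counts in every library, and 99.5% of the 74-nt stretches of its transcript occur in transcripts of other genes, so its level is uncertain.

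**Figure D4:**
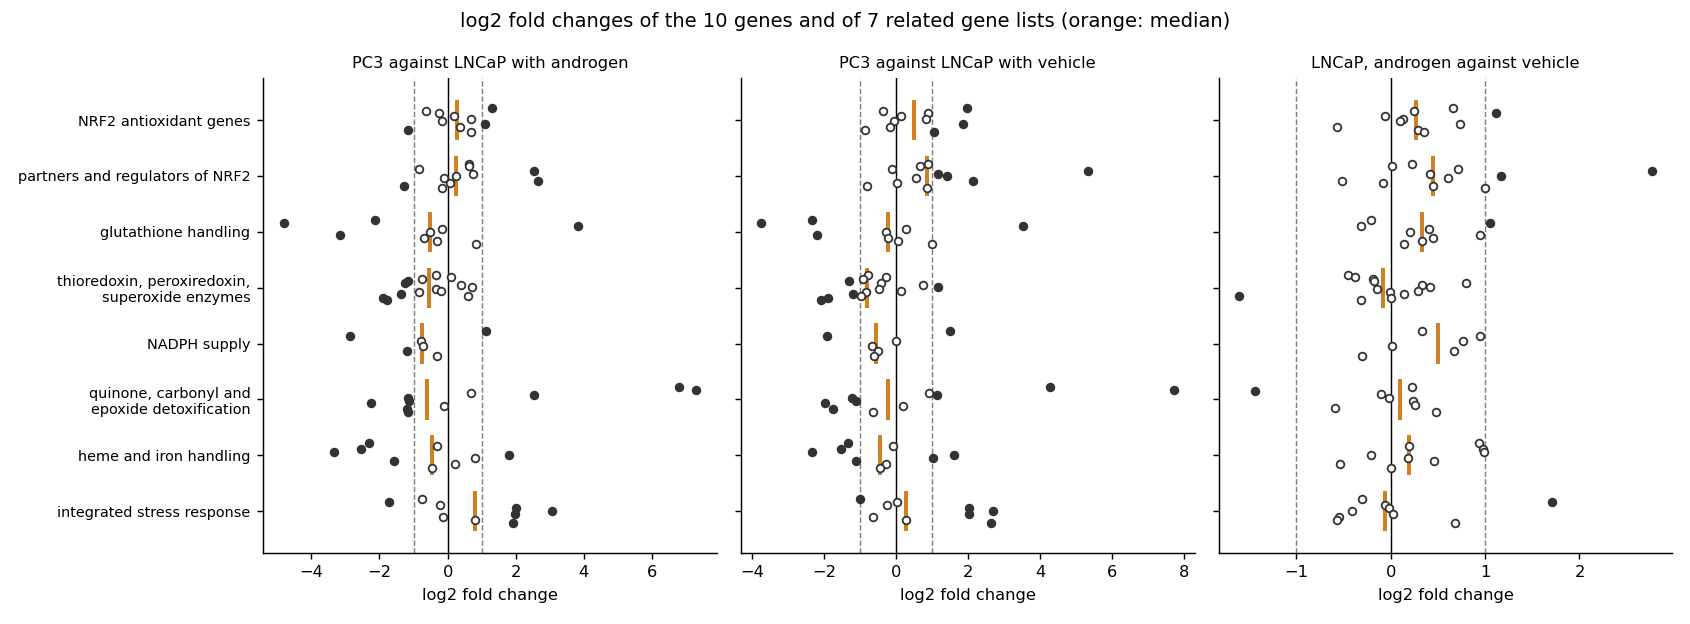
log2FC of the tested genes of 8 lists in the 3 comparisons (the axes differ between panels), with called genes filled, list medians in orange and dashed lines at a fold change of 2. The 10 genes lie between -1.17 and 1.97, single genes of the other lists lie beyond, and the values of ALDH3A1 and AKR1C3 at the far right rest on LNCaP libraries with few or no counts.

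Between 17397706 and 25640325 reads were counted on genes per library, fewest with vehicle, and a count of 0 allows up to 0.118 to 0.160 CPM. The labelled lines held their markers. KLK2, a kallikrein gene of prostate cells, had 0 counts in every PC3 library, 667 to 757 CPM with androgen and 32.5 to 48.8 CPM with vehicle, and the PC3 markers VIM, CD44 and AXL summed to 1905 to 1933 CPM in PC3 cells, 6.11 to 17.2 with androgen and 1.65 to 5.44 with vehicle. Without PC3 replicate 3, which stood apart from the others, 3 of the 10 genes were still called in each comparison of the cell lines, and the log2FC against androgen and vehicle was 1.50 and 2.15 for GCLC, 0.90 and 1.24 for TXNRD1, -1.02 and -0.74 for SRXN1, 1.30 and 2.03 for OSGIN1 and -0.47 and 0.63 for HMOX1. Leaving out any PC3 library also changed the genes tested and the scaling. Against androgen, SRXN1 was at -1.01 without PC3 replicate 1 and NFE2L2 at 0.84 without PC3 replicate 2. The shifts without PC3 replicate 3 can therefore not be read as those of that library alone. Less than 1% of the 74-nt stretches of each of the 10 transcripts occur at another genomic place. Transcripts of other genes hold 18.0% of the NQO1 stretches, 7.62% of those of SLC7A11, 4.97% of NFE2L2 and 2.99% of GCLC, besides those of SRXN1.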

How the data were processed

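RNAseq libraries of PC3 cells, LNCaP cells with androgen and LNCaP cells with vehicle (3 each) were analysed. The authors made poly(A) libraries, sequenced 74 nt single-end reads, aligned them to hg38 and removed PCR duplicates, and the submitters' processing notes name cutadapt 4.1, STAR 2.7.7a and UMI-tools 1.1.2. The deposited values are counts, whole numbers of reads per gene without normalization, and all 253944 table values were equal to the forward-strand counts of STAR. 0 columns were left out. Between 20.3 and 25.4% of the reads were not on a gene. Intervals and limits cover counting error only.

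Genes with more than 3 CPM in at least 3 libraries were tested with edgeR 4.0.16 (R 4.3.3), TMM factors and the quasi-likelihood test on the 6 libraries of each comparison, with Benjamini-Hochberg adjustment over all genes tested. SE is the log2FC divided by the square root of F. The study's own model was a likelihood ratio test that included an undefined batch term, so this test and a replicate block were alternatives, beside DESeq2 1.42.0, other filters, unstranded counts, a fit of all 9 libraries and leaving out each library.

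The 10 genes, the related lists and the rule for named genes (all 10 genes, and in each list and comparison up to 2 called genes with the largest rise and up to 2 with the largest fall, plus stress response genes beside SLC7A11 and the markers) were chosen with earlier results of these data known. Some genes that this rule covers are not reported here, while counts and medians over lists include them. No list was tested as a set. The 74-nt stretches of canonical transcripts were searched in GRCh38 and in all other GENCODE transcripts. Promoter windows are from RefSeq.

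Replicate numbers are shared by the groups. Over 12843 genes, the deviations of same-numbered LNCaP libraries from their group means had correlations of 0.527, 0.306 and 0.197. Other numbers had -0.384 to 0.222, with 0.222 for androgen replicate 3 and vehicle replicate 2. The counts thus point to pairs most clearly for replicate 1, and the labels name none. The main test held no term for the replicate number, so its p-values for LNCaP cells leave such pairs out. The replicate block was an alternative. Between PC3 and LNCaP libraries, same-numbered values were -0.091 to 0.029. Tested on simulated data, the main test found 100 of 106 genes that had a true log2FC of 1.5 and 94 of 94 with 2, with 2 false calls, for PC3 against androgen (12170 genes). For PC3 against vehicle (12295 genes) it found 106 of 107 and 93 of 93, with 2 false calls. For androgen against vehicle (11538 genes) it found 103 of 103 and 97 of 97, with 0 false calls. Only these few genes were changed in the simulated data, whereas 46, 43.2 and 14% of all genes were called in the measured data. The false calls where so many genes differ were therefore not tested. Nor was the recovery of a log2FC below 1.5, the range of most values given for the NRF2 genes.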

Additional observations from a re-analysis of the deposited data

How the results depend on the processing

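The counts of genes called in PC3 cells against LNCaP cells with androgen, PC3 cells against vehicle and androgen against vehicle were 5773, 5485 and 1641, and 3, 3 and 1 of the 10 genes and 33, 33 and 6 genes of the related lists were among them. Without the filter on low counts, 9147, 8713 and 2941 genes were called, with 13 genes of the related lists for androgen against vehicle. The adjusted p alone gave 10530, 10577 and 8763 genes, 7, 8 and 8 of the 10 genes, and 58, 59 and 55 genes of the related lists. With the replicate block, 5756, 5495 and 1638 genes were called, of which 5748, 5463 and 1636 were shared with the test without it, and the block changed no call among the 10 genes, although NQO1 then passed the adjusted p with androgen. Leaving out 1 library in turn gave 4633 to 5006, 4361 to 4593 and 1404 to 1551 genes, 2 to 3, 2 to 4 and 0 to 1 of the 10 genes, and 28 to 32, 29 to 33 and 4 to 9 genes of the related lists. A group left with 2 libraries cannot by itself pass a filter of 3 libraries, so fewer genes were tested there. The scaling was also computed anew. For PC3 cells against vehicle the median log2FC of all genes was 0.0263 in the main test. It was -0.0247 to -0.019 without 1 PC3 library and 0.0296 to 0.0399 without 1 vehicle library. A shift in such a fit can therefore not be read as that of the library left out alone. Without androgen replicate 1, 0 of the 10 genes were called with androgen, since HMOX1 fell below the fold change of 2 (log2FC 0.94). DESeq2 size factors in place of TMM moved the median log2FC of all genes by less than 0.1. The direction turned for values near 0. For PC3 cells against androgen this was HMOX1 without PC3 replicate 2 (0.11, and -0.47 to 0.11 over the fits without 1 library). For PC3 cells against vehicle it was NQO1 without any 1 PC3 library (-0.2404 to 0.0587 over the fits without 1 library), and ATF3, at 0.01 in the main test, with DESeq2 size factors (-0.0016), DESeq2's Wald test (-0.0015), the replicate block in edgeR's quasi-likelihood (-0.0153) or likelihood ratio test (-0.0161), all 9 libraries (-0.0173) and 4 of the fits without 1 library (-0.1343 to 0.2719 over all of them). For androgen against vehicle it was KEAP1 without androgen replicate 2 (-0.0959 to 0.0076 over the fits without 1 library), CEBPB with unstranded counts (0.0098) and in 2 fits without 1 library (-0.0717 to 0.0326 over all), and TXNRD2 in 3 such fits (-0.0418 to 0.0292 over all). The cause was not tested. In the fits without 1 library, the library left out and the change in genes tested and scaling cannot be told apart. Depth does not limit the 10 genes, which had at least 71 counts in every library.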
